A study of Mus musculus with 29 samples.

Results

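Alveolar septa of mouse lung were compared between P4 to P5, when the pup breathes air, and E18.5, when the lung of the fetus is still filled with fluid. The 6 libraries are those of pups a and e at P4, pups b and e at P5, and animals 4 and 3 at E18.5, taken by the age in their labels out of 29 libraries in all. Every animal of both groups was a wild type C57BL/6 mouse that received no treatment by the labels. By the labels the groups differ in age, and with it in birth, feeding and air breathing. The labels also give a sex, which is taken up below. Septa were cut by laser from frozen sections, away from large vessels and bronchi, and 1 library was made per animal from total RNA depleted of ribosomal RNA. The full series holds 15 ages, with 2 animals at every age but the last. The design text of the series names no E18.5 time point, while the labels of 2 libraries give that age, and the labels were used. A cut piece of septum holds epithelium, capillaries and mesenchyme together, so fewer cells of a type and less RNA per cell cannot be told apart in any value given here.

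The mouse lung is in its saccular stage shortly before birth, with wide, thick-walled airspaces filled with liquid that the epithelium secretes. At birth this liquid is absorbed, oxygen rises, and pulmonary blood flow grows. A few days later ridges called secondary septa grow into the saccules and divide them into alveoli, a step that needs myofibroblasts, elastic fibers and a spreading capillary bed. Cell division is active before birth and again during this step.

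Expression is given in FPKM, which scales fragment counts to transcript length and library size, so that read depth is unknown and only the spread between animals measures precision. The 6 libraries held FPKM totals of 379180 to 409862 in P4-P5 and of 384820 and 394849 in E18.5, and 12418 to 12952 genes per library had 1 FPKM or more. Between 3 and 16 of 8623 coding genes whose median over the series was 5 FPKM or more stood at 0 in each of these libraries, so that 0 may stand for a failed estimate. On the scale of log2(FPKM + 1) the P4-P5 libraries correlated with each other at 0.876 to 0.909 (Pearson's r across genes, 6 pairs) and the 2 E18.5 libraries at 0.906. Between the groups r was 0.793 to 0.839 for E18.5-4 and 0.844 to 0.864 for E18.5-3. Sex-linked genes disagreed with the labelled sex for 5 of the 6 animals, and by these genes both groups hold equal numbers of males and females. The labelled sexes are therefore not balanced in both groups. Whether the sex labels or the libraries are misassigned was not tested, and the age of each library rests on the same labels. Markers of the alveolar wall were present in all 6 libraries. Sftpc, the surfactant protein of type 2 cells, stood at 8633 to 13250 FPKM in P4-P5 and at 12370 and 15830 FPKM in E18.5. Cdh5, a junction protein of endothelium, stood at 207 to 242 FPKM in P4-P5 and at 151 and 153 FPKM in E18.5.

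Among the 13769 genes that reached 1 FPKM in 2 or more of the 6 libraries, 771 were higher in P4-P5 (5.6% of those tested) and 482 were lower (3.5%) at a Benjamini-Hochberg adjusted p under 0.05 in limma. Below, higher and lower, rose and fell refer to genes that passed this test, and differences are P4-P5 minus E18.5 on the scale of log2(FPKM + 1). The count of calls in each gene list is to be read beside these shares of 5.6% and 3.5%. The median difference over all genes tested was 0.08. With median ratio scaling it was 0.01, and 653 genes were higher and 598 lower, so that 52.2% of the calls were increases in place of 61.5%. The count rested on E18.5-4 more than on any other library. Without it 70 genes were higher and 37 lower, and without E18.5-3 the counts were 618 and 284. Of the 1253 calls, all kept their direction without E18.5-4 and 960 became smaller. These genes were picked with that library included, and the refit shares the other libraries, so neither is an independent check. In 8411 of the 13769 genes E18.5-4 lay farther from the P4-P5 mean than E18.5-3 did. In total 63 increases and 32 decreases held, meaning that they also passed in each of the 6 fits that left out 1 of these libraries. At the edge of the threshold lay Iqub, with a difference of -1.65 and an adjusted p of 0.0499, and, just outside, Golm1, with -0.76 and 0.0502. An exact permutation of 2 against 4 libraries has 15 regroupings and cannot give a two-sided p below 0.0667, so it is not used for single genes.

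**Figure D1:**
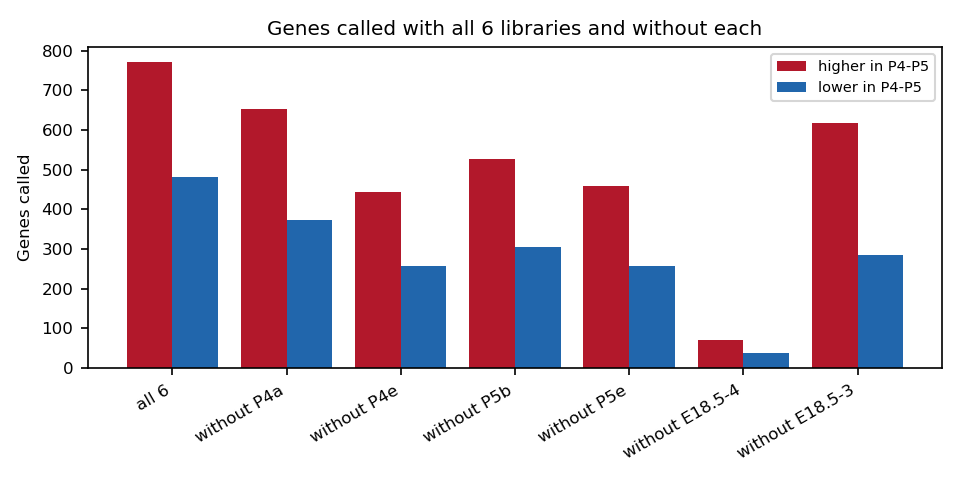
Number of genes called higher (red) and lower (blue) in P4-P5 than in E18.5 (y axis, genes with a limma adjusted p under 0.05) with all 6 libraries and with each of them left out (x axis). The counts stand at 771 and 482 with all 6 libraries, and at 70 and 37 without E18.5-4, the lowest pair of bars.

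Among the increases that held were genes of the matrix, of contraction, of endothelium and of other functions. Thbs3, a thrombospondin of the extracellular matrix, had 25.3, 25.3, 23.9 and 18.1 FPKM in P4a, P4e, P5b and P5e, against 0.814 and 2.71 FPKM in E18.5-4 and E18.5-3. No P4-P5 library came near the E18.5 level, and the difference of 3.21 (standard error 0.27, adjusted p = 4.7e-06) had the smallest p of all genes. Tmem100, an endothelial protein that BMP signaling through Acvrl1 induces, had 457, 260, 270 and 259 FPKM in P4-P5, in the same order, against 44.5 and 36.5 FPKM in E18.5 (difference 2.88, adjusted p = 9.0e-05). P4a stood above the other 3 pups, and all 4 were above both fetuses. Plvap, which forms the diaphragms of endothelial pores, had 54.8, 70.3, 65.1 and 75.9 FPKM in P4-P5, against 8.84 and 12.9 FPKM in E18.5 (difference 2.52). Des, the muscle intermediate filament desmin, had 31.0, 26.7, 56.6 and 54.6 FPKM in P4-P5, against 3.91 and 5.96 FPKM in E18.5 (difference 2.81). The P5 pups held more Des than the P4 pups, and both ages lay above E18.5. Pdlim3, a protein of the contractile apparatus, had 53.6 to 64.3 FPKM in P4-P5, against 7.18 and 5.86 FPKM in E18.5 (difference 3.03). Prss35, a member of the serine protease family, had 62.5 to 137 FPKM in P4-P5, against 10.9 and 8.55 FPKM in E18.5 (difference 3.15). Podxl2, a sialomucin, differed by 3.47, and Dusp10, a phosphatase of stress kinases, by 3.19. The widest increases were picked among genes without overlap.

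The decreases that held included genes of metabolism, ion transport and the fetal program. Hif3a, the third alpha subunit of the hypoxia-inducible factors, had 0.782, 5.34, 0.820 and 1.36 FPKM in P4a, P4e, P5b and P5e, against 50.1 and 68.9 FPKM in E18.5-4 and E18.5-3. P4e was the highest of the pups, yet far under both fetuses, and the difference was -4.50 (standard error 0.53, adjusted p = 1.1e-04). Atp6v0a4, a subunit of the proton pump, had 0.551, 1.28, 0.180 and 0.444 FPKM in P4-P5, against 37.7 and 27.5 FPKM in E18.5 (difference -4.41). Ppp1r3b, a subunit that directs protein phosphatase 1 to glycogen, had 6.51 to 13.4 FPKM in P4-P5, against 86.0 and 177 FPKM in E18.5 (difference -3.61). Fmo2, the flavin monooxygenase of lung, had 22.7 to 39.6 FPKM in P4-P5, against 358 and 180 FPKM in E18.5 (difference -3.07). On the log2 scale, though not in FPKM, the gap between the groups was wider than the spread between the 2 fetuses. Gnmt, a methyltransferase that consumes S-adenosylmethionine, was listed at 0 in P4a, P4e and P5e and at 0.460 FPKM in P5b, against 8.96 and 16.9 FPKM in E18.5 (difference -3.60). Gnmt was near 0 at E16.5 too, with values of 0 and 0.588 FPKM, and did not pass 1.26 FPKM at P0.5 to P2.5, so the E18.5 animals stood above both neighbouring ages. Zbtb8b, a zinc finger gene, had at most 0.599 FPKM in P4-P5, against 9.20 and 9.00 FPKM in E18.5.

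**Figure D2:**
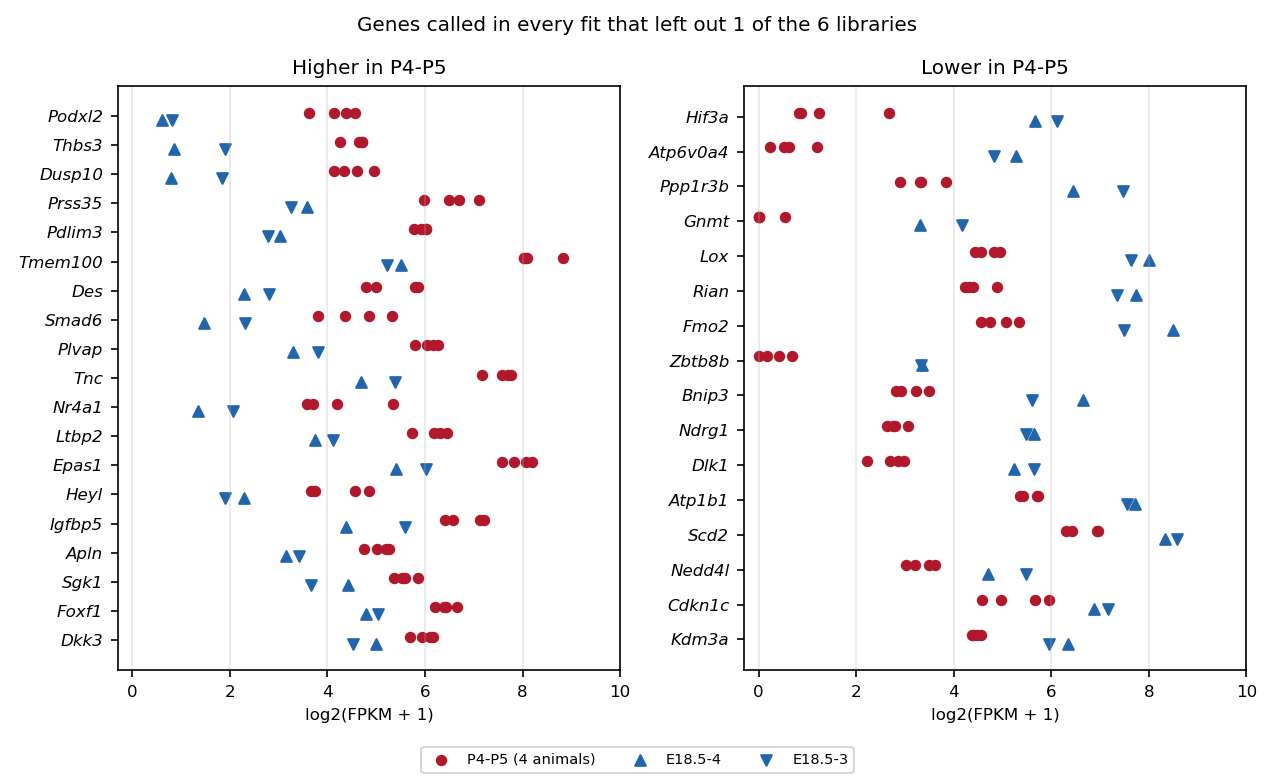
Level of each gene in each library (x axis, log2(FPKM + 1)) for 19 genes higher and 16 genes lower in P4-P5 whose call held without any 1 of the 6 libraries, with red points for the 4 P4-P5 animals and blue triangles for E18.5-4 and E18.5-3. In none of these genes do the 4 pups overlap the 2 fetuses, but no overlap was a condition for picking the widest. In Hif3a the pup at 5.34 FPKM still lies under the fetuses at 50.1 and 68.9 FPKM.

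Several of the widest differences by size did not hold, and some of these rested on values at or near 0. Smim4, with 14.0 to 22.9 FPKM in P4-P5, and C1qtnf2, with 6.23 to 13.1 FPKM, were listed at 0 in both E18.5 libraries, so no fold is given. The call of Smim4 was lost without any 1 of the 6 libraries, and that of C1qtnf2 without E18.5-4 (adjusted p = 0.259 and 0.0761 without that library). Tap1, a peptide transporter of antigen presentation, had 11.6 to 21.4 FPKM in P4-P5 and was listed at 0 and at 0.474 FPKM in E18.5. Pet117, a factor of cytochrome oxidase assembly, had 18.8 to 56.3 FPKM in P4-P5 and was listed at 0 and at 3.48 FPKM in E18.5. Mdk, the growth factor midkine, had 187 to 245 FPKM in P4-P5, against 13.7 and 34.6 FPKM in E18.5 (adjusted p = 0.0484), and its call was lost without any 1 of the 6 libraries. Lgals1, the lectin galectin 1, had 91.6 to 240.1 FPKM in P4-P5, against 38.2 and 10.3 FPKM in E18.5, and Hirip3, a partner of the histone chaperone HIRA, 16.8 to 27.2 FPKM against 1.13 and 3.32 FPKM. Without E18.5-4 the adjusted p was 0.182 for Tap1, 0.437 for Pet117, 0.465 for Mdk and 0.0623 for Hirip3, and for Lgals1 the call was lost without E18.5-3 (0.127). On the other side, Cldn10, a paracellular ion channel, was listed at 0 in both P4 pups and had 1.29 and 5.07 FPKM at P5, against 37.5 and 28.1 FPKM in E18.5. Inmt, an indole methyltransferase, had 0 to 2.43 FPKM in P4-P5, against 43.5 and 11.03 FPKM in E18.5, and Fgfbp1, a carrier of fibroblast growth factors, 0.549 to 7.23 FPKM against 43.5 and 21.2 FPKM. Pon1, an esterase, had 0 to 6.18 FPKM in P4-P5, against 29.9 and 17.3 FPKM in E18.5, and Tctex1d2, a dynein light chain, 0 to 2.36 FPKM against 14.7 and 9.65 FPKM. Without E18.5-4 the adjusted p of these 5 genes was 0.0972 to 0.301. Cldn10 and Tctex1d2 were lost without E18.5-3 too, and Pet117 and Tctex1d2 without P4e or P5b.

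Genes of cell division were expressed in both groups, and few were called. The error and intervals rest on the spread within each age of the whole series, not on the compared libraries alone. At some other ages that spread was wide. The mean of log2(FPKM + 1) over the mitosis list was 1.806 in P0.5e and 4.125 in P0.5f, but 2.724 and 2.714 in P2.5h and P2.5i. Its SD was 0.114 in P4-P5 and 0.088 in E18.5. A gene that was not called, such as Mcm2 below, may therefore still differ between the groups. Of 27 genes of S phase and the replication fork, 2 were higher and none lower, with a median difference of 1.13, and of 30 genes of mitosis 1 was higher and none lower, with a median of 0.48. Over all genes tested 5.6% were higher, 3.5% were lower and the median was 0.08. In the S phase list 25 of 27 differences were positive, and in the mitosis list 24 of 30. Mki67, the marker of cycling cells, had 347, 304, 231 and 216 FPKM in P4a, P4e, P5b and P5e, against 162 and 183 FPKM in E18.5-4 and E18.5-3. Every pup lay above both fetuses, but the difference of 0.64 did not pass, and its 95% interval runs from -0.52 to 1.80. Top2a, the topoisomerase that untangles chromosomes, had 83.0, 66.6, 72.8 and 63.4 FPKM in P4-P5, against 66.7 and 52.9 FPKM in E18.5 (difference 0.26, interval -0.92 to 1.43). Ccnb1, the mitotic cyclin, had 16.0, 13.7, 13.8 and 6.69 FPKM in P4-P5, against 13.7 and 7.81 FPKM in E18.5 (difference 0.19, interval -1.24 to 1.62), and without E18.5-3 the difference was -0.18. These groups overlap, and the intervals leave room for a change of either sign. The helicase subunits stood farther apart. Mcm2 had 29.4, 18.8, 18.8 and 18.1 FPKM in P4-P5, against 6.19 and 6.50 FPKM in E18.5 (difference 1.57, adjusted p = 0.102), and Mcm3 20.9 to 33.4 FPKM against 9.11 and 10.2 FPKM (difference 1.40, adjusted p = 0.0313). Lig1, which joins the pieces of the lagging strand, had 12.0 to 17.3 FPKM in P4-P5, against 2.09 and 4.96 FPKM in E18.5 (difference 1.78). Pcna, the clamp of the replication fork, had 38.5 to 112 FPKM in P4-P5, against 52.4 and 33.6 FPKM in E18.5 and did not pass. Mybl2, a factor that switches on late cell cycle genes, had 2.90 to 8.74 FPKM in P4-P5, against 0.160 and 0.319 FPKM in E18.5 (difference 2.46, adjusted p = 0.0113). Without E18.5-4 none of the 3 calls remained (adjusted p of 0.183 to 0.444), and the medians were 0.92 for S phase and 0.44 for mitosis. Mcm3 and Lig1 were also lost without P4a, without P4e and without P5b, Lig1 without P5e, and Mcm3 and Mybl2 without E18.5-3.

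Placed beside the other ages, mitosis genes stood above the mean of the first days after birth in both groups, and S phase genes mainly in P4-P5. The mean of log2(FPKM + 1) over the mitosis list was 4.28 ± 0.11 (SD, n = 4) in P4-P5 and 3.74 ± 0.09 (SD, n = 2) in E18.5. It was 5.204 at E16.5 (n = 2), 2.42 ± 0.79 (SD, n = 8) at P0.5 to P2.5, 3.12 ± 0.41 (SD, n = 4) at P7 to P10 and 1.80 ± 0.74 (SD, n = 9) from P13.5 on. One library of P0.5 reached 4.12. The S phase list averaged 3.63 ± 0.26 (SD, n = 4) in P4-P5 and 2.65 ± 0.23 (SD, n = 2) in E18.5, against 4.62 at E16.5, 2.49 ± 0.52 (SD, n = 8) at P0.5 to P2.5, 2.58 ± 0.57 (SD, n = 4) at P7 to P10 and 2.04 ± 0.49 (SD, n = 9) later. The 2 E18.5 libraries, at 2.49 and 2.81, lay within the range of P0.5 to P2.5, which ran from 2.03 to 3.63. These means are a description of the libraries, with no test.

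**Figure D3:**
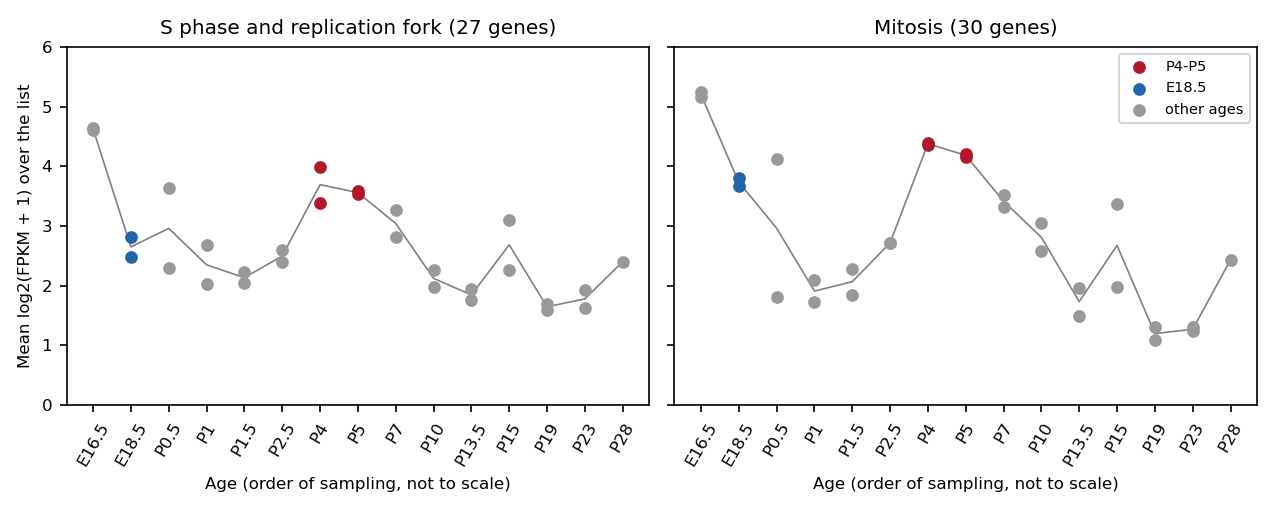
Mean log2(FPKM + 1) over the 27 genes of S phase (left) and the 30 genes of mitosis (right) in each library (y axis) by age (x axis, in order but not to scale), with P4-P5 in red, E18.5 in blue, other ages in grey and a line through the age means. Mitosis genes stand at 4.28 in P4-P5 and 3.74 in E18.5, and both groups lie above the mean of 2.42 for the 8 libraries from P0.5 to P2.5, while for S phase genes E18.5 lies near it.

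Of 5 genes of D cyclins and their kinases, 2 were higher and none lower. Ccnd1 had 50.1, 37.2, 51.9 and 56.9 FPKM in P4-P5, against 22.6 and 27.5 FPKM in E18.5 (difference 0.93, adjusted p = 0.00323), and Ccnd2 56.3 to 78.8 FPKM against 33.4 and 43.0 FPKM (difference 0.79). Of 10 cell cycle inhibitors 2 were lower and none higher. Cdkn1c, the imprinted inhibitor p57, had 30.3, 23.0, 49.5 and 60.9 FPKM in P4-P5, against 117 and 143 FPKM in E18.5 (difference -1.74, adjusted p = 0.001), a call that held. Mycn, the Myc factor of embryonic tissues, had 5.24 to 6.66 FPKM in P4-P5, against 0.0780 and 1.69 FPKM in E18.5 (difference 2.04), and was the only call among 7 genes of fetal RNA-binding proteins and Myc factors. Without E18.5-4 the adjusted p was 0.1203 for Ccnd1, 0.252 for Ccnd2 and 0.336 for Mycn. Btg2, an antiproliferative gene, was lower by a difference of -0.88, and its call was lost without E18.5-4 (adjusted p = 0.166), E18.5-3, P4a, P5b or P5e.

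Imprinted genes, which are expressed from 1 parental copy and which regulate fetal growth, were lower where they differed. Of 19 tested, 6 were lower and none higher, with a median difference of -0.82 (-0.97 without E18.5-4). Rian, a noncoding RNA of the Dlk1 to Dio3 cluster on chromosome 12, had 19.0, 28.7, 17.7 and 20.2 FPKM in P4-P5, against 214 and 163 FPKM in E18.5 (difference -3.09, adjusted p = 1.8e-04). Dlk1, a membrane protein of the same cluster that holds back differentiation, had 3.65, 6.92, 6.30 and 5.47 FPKM in P4-P5, against 36.5 and 49.4 FPKM in E18.5 (difference -2.75). Rtl1, a retrotransposon-derived gene of that cluster that is not in the list and was picked after its values were seen, had 1.11 to 3.81 FPKM in P4-P5, against 10.98 and 15.0 FPKM in E18.5. All 3 calls held. Meg3, the noncoding RNA beside them, had 29.4 to 47.3 FPKM in P4-P5, against 46.8 and 126 FPKM in E18.5, and did not pass (difference -0.94, interval -1.96 to 0.08). In this gene E18.5-4 lay within the range of the pups. At P7 to P10 Rian stood at 6.64 to 8.99 FPKM and Dlk1 at 0 to 0.655 FPKM, and Dlk1 was listed at 0 in all 9 libraries from P13.5 on. Rian and Dlk1 were at 84.1 and 126 FPKM and at 21.3 and 51.1 FPKM at E16.5. Igf2, the fetal insulin-like growth factor, had 20.6, 35.6, 31.8 and 30.7 FPKM in P4-P5, against 64.7 and 138 FPKM in E18.5 (difference -1.66) and 419 and 594 FPKM at E16.5. Igf2r, the receptor that clears this factor, had 54.7 to 83.5 FPKM in P4-P5, against 192 and 140 FPKM in E18.5 (difference -1.29). The calls of Igf2 and Igf2r were lost without E18.5-4 (adjusted p = 0.0719 and 0.0710), and that of Igf2 also without E18.5-3, P4a or P5e. The growth-restricting RNA H19 lay just outside the threshold (difference -1.06, adjusted p = 0.0503).

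In the rest of the insulin-like growth factor axis binding proteins rose. Of 12 genes of the axis 4 were higher and 2 lower, and Igf2 is one of the decreases. Igfbp5 had 83.9, 93.9, 147 and 138 FPKM in P4-P5, against 19.8 and 47.4 FPKM in E18.5 (difference 1.84, adjusted p = 3.0e-04), and its call held. Igfbp2, a binding protein made by type 1 cells, had 17.6 to 32.2 FPKM in P4-P5, against 2.81 and 6.00 FPKM in E18.5 (difference 2.27). Igfbp4 rose by 1.10 and Igfbp7 by 1.56, and the insulin receptor gene Insr fell by 0.73. The calls of Igfbp2, Igfbp4, Igfbp7 and Insr were lost without E18.5-4 (adjusted p of 0.182 to 0.316), those of Igfbp7 and Insr also without E18.5-3, and that of Insr without P4a, P5b or P5e. Igf1, the postnatal growth factor, had 36.3 to 50.6 FPKM in P4-P5, against 37.9 and 41.4 FPKM in E18.5, with a difference of 0.16 and an interval from -0.81 to 1.12.

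In the list of genes that low oxygen induces, those that differed were lower in P4-P5. The list was chosen with earlier results of these data known and does not hold every such gene. When oxygen is scarce, alpha subunits of the hypoxia-inducible factors escape breakdown, pair with Arnt and bind short elements with the core ACGTG, switching on glycolysis, glucose uptake and vessel growth. Of 15 such induced genes outside glycolysis 6 were lower and none higher, with a median of -1.02 (-1.37 without E18.5-4). Bnip3, a receptor for the removal of mitochondria, had 8.35, 6.05, 6.62 and 10.3 FPKM in P4-P5, against 100.1 and 47.6 FPKM in E18.5 (difference -3.01, adjusted p = 1.1e-04). Ndrg1, a stress-induced gene, had 5.203, 5.71, 7.37 and 5.90 FPKM in P4-P5, against 49.3 and 43.6 FPKM in E18.5 (difference -2.76, adjusted p = 3.0e-04). Kdm3a, a histone demethylase, had 19.6 to 22.7 FPKM in P4-P5, against 79.7 and 60.7 FPKM in E18.5 (difference -1.69). These calls held. Pdk1, the kinase that keeps pyruvate out of the mitochondria, had 2.47 to 5.76 FPKM in P4-P5, against 22.6 and 16.4 FPKM in E18.5 (difference -2.02). P4ha1, which hydroxylates collagen, was lower by a difference of -1.52 and Mxi1, an antagonist of Myc, by -0.97, and these calls and that of Pdk1 were lost without E18.5-4 (adjusted p of 0.123 to 0.268). Mxi1 was also lost without E18.5-3, P4a, P4e or P5e. Vegfa, the vessel growth factor that low oxygen induces, had 275 to 370 FPKM in P4-P5, against 146 and 278 FPKM in E18.5, and did not pass (difference 0.66, interval 0.14 to 1.17, adjusted p = 0.107).

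Among 7 oxygen sensors and factors, Epas1 was higher and Hif3a lower, and both calls held. Epas1, the endothelial alpha subunit HIF-2, had 190, 226, 270 and 292 FPKM in P4-P5, against 41.3 and 63.8 FPKM in E18.5 (difference 2.21, standard error 0.27, adjusted p = 1.1e-04). The lowest pup, P4a, stood above the higher fetus. Hif1a had 30.8 to 38.8 FPKM in P4-P5, against 68.6 and 48.3 FPKM in E18.5, without overlap, and did not pass (difference -0.73, interval -1.38 to -0.09, adjusted p = 0.151). Through the series Hif3a stood at 33.6 and 50.7 FPKM at E16.5 and at 2.11 to 18.9 FPKM at P0.5 to P2.5, and its highest value from P7 on was 8.33 FPKM. Epas1 stood at 16.5 and 28.7 FPKM at E16.5, at 199 to 394 FPKM at P0.5 to P2.5 and at 274 to 734 FPKM from P13.5 on.

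**Figure D4:**
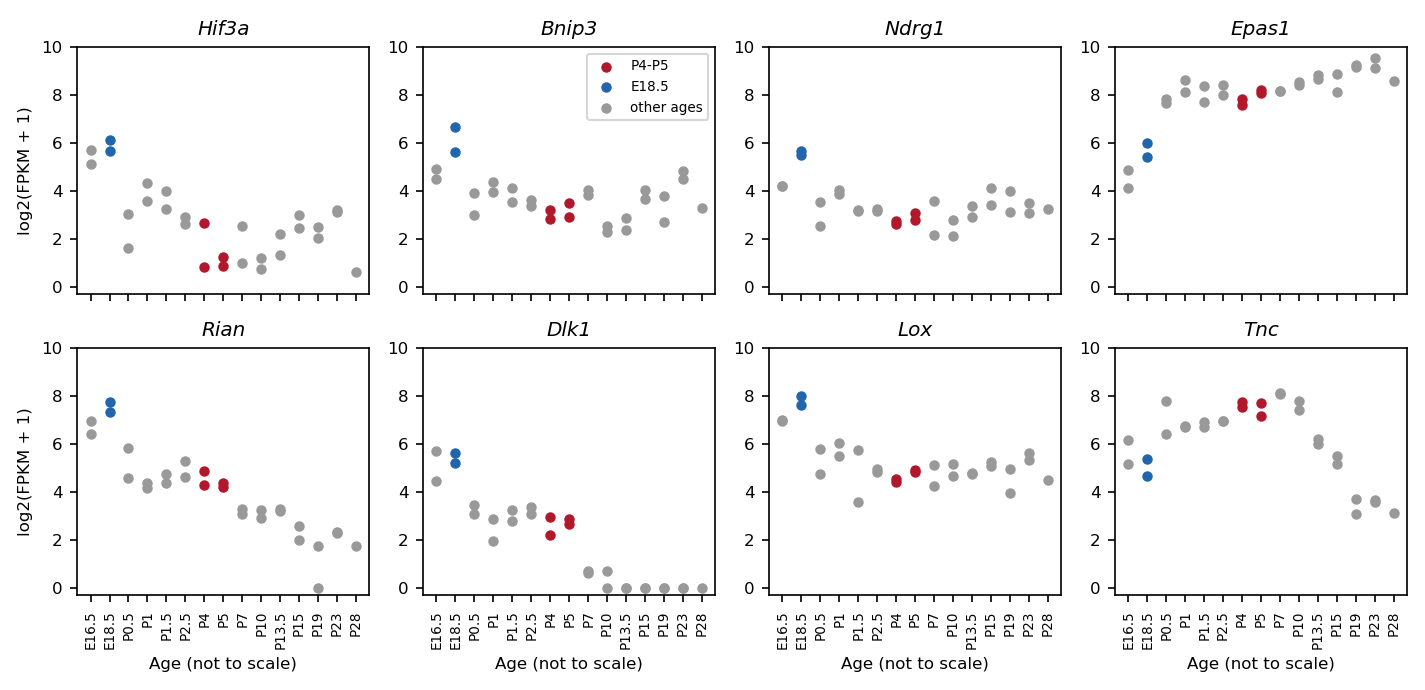
Level in each of the 29 libraries (y axis, log2(FPKM + 1)) by age (x axis, in order but not to scale) of 3 genes lower in P4-P5 in the low oxygen list and its factors, Hif3a, Bnip3 and Ndrg1, of Epas1, of the imprinted genes Rian and Dlk1 and of the matrix genes Lox and Tnc, with P4-P5 in red, E18.5 in blue and other ages in grey. Bnip3 and Ndrg1 are highest at E18.5 (47.6 to 100.1 and 43.6 to 49.3 FPKM), Dlk1 is at 0 from P13.5 on, and Tnc stands at 143 to 217 FPKM in P4-P5 and at 24.9 and 40.6 FPKM in E18.5.

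Glycolysis genes were also lower where they differed. Of 16 genes of glucose uptake and glycolysis 4 were lower and none higher, with a median of -0.97 (-0.94 without E18.5-4). Slc2a1, the glucose transporter of fetal tissue, had 2.80, 3.81, 4.62 and 5.63 FPKM in P4-P5, against 22.1 and 30.2 FPKM in E18.5 (difference -2.39, adjusted p = 0.0109). Hk2, the inducible hexokinase, had 2.02 to 3.45 FPKM in P4-P5, against 11.2 and 14.3 FPKM in E18.5 (difference -1.81). Tpi1, triose phosphate isomerase, was lower by a difference of -1.73 and Aldoa, aldolase, by -1.26. None of the 4 calls held without E18.5-4 (adjusted p of 0.109 to 0.465). Slc2a1, Hk2 and Tpi1 were lost without E18.5-3 as well, and Tpi1 and Aldoa without P4e or P5e. Ldha, lactate dehydrogenase, lay outside the threshold with 25.4 to 52.8 FPKM in P4-P5, against 109 and 77.7 FPKM in E18.5 (adjusted p = 0.0533). Without the 3 libraries of other ages that are rich in zeros 7 of the 16 genes were lower. Calls rose over all genes tested too, with 678 lower in place of 482.

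Promoters of the low oxygen and glycolysis lists were searched for ACGTG on both strands, in the 250 bases before and the 50 bases after each start in RefSeq sequences of GRCm38.p6. The motif was in a promoter of 6 of the 10 lower members with an entry in the table, Aldoa, Bnip3, Hk2, Mxi1, P4ha1 and Slc2a1, and of 18 of 26 members that were not called. By promoter, 47.1% of those of the lower members and 51.4% of those of the others hold it, against 19.6% of all 32851 promoters in the table. The share in the lower members was no larger than in the members not called. The promoters of Bnip3 and Slc2a1 are shown as lower members with the motif, and that of Hif3a as the member with the widest difference, in which the letters were not found. They lie at chr7:138909457-138909756 on the minus strand, chr4:119108495-119108794 on the plus strand and chr7:17062378-17062677 on the minus strand. Capitals mark ACGTG or its reverse complement CACGT, and in Bnip3 the 2 overlap in CACGTG.
Bnip3: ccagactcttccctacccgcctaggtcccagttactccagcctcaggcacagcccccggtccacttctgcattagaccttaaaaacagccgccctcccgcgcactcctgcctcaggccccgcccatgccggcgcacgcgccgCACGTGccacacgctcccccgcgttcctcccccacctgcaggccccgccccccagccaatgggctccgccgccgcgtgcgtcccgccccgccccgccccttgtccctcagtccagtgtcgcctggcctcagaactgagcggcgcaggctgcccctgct
Slc2a1: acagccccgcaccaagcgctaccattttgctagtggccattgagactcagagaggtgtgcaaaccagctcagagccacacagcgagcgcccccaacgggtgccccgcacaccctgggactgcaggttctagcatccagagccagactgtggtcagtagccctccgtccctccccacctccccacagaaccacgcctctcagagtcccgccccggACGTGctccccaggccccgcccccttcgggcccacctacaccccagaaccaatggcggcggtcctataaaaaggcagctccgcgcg
Hif3a: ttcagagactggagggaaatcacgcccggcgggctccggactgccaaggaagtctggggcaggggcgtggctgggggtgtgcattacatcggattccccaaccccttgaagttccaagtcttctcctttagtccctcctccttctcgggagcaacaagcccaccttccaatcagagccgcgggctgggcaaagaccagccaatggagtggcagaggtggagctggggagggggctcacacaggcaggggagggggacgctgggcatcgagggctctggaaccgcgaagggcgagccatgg
A match is a description of the letters and does not show that a factor binds there.

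Of 25 genes of electron transport and ATP synthase 1 was lower and none higher, with a median of -0.26 (-0.07 without E18.5-4). Over all genes tested 3.5% were lower. The exception was Uqcrfs1, the iron-sulfur subunit of complex III, with 6.60 to 25.7 FPKM in P4-P5, against 62.9 and 42.2 FPKM in E18.5 (adjusted p = 0.0497), a call lost without E18.5-4 (0.442), E18.5-3, P4e or P5e. Of 20 antioxidant enzymes 1 was higher and 3 were lower, with a median of -0.29 (0.08 without E18.5-4). Sod3, the superoxide dismutase of the extracellular space, had 3.20, 12.0, 12.9 and 8.32 FPKM in P4-P5 and was listed at 0 and at 1.73 FPKM in E18.5 (difference 2.48, adjusted p = 0.00461). The peroxiredoxins Prdx1 and Prdx3 and the plasma glutathione peroxidase Gpx3 were lower, with differences of -1.17, -1.81 and -1.73. These calls and that of Sod3 were lost without E18.5-4 (adjusted p of 0.209 to 0.437), Prdx1 also without P4e, P5b or P5e, Prdx3 without P5e, and Gpx3 without any 1 of the 6 libraries.

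Transport genes of the epithelium changed in both directions. The fetal lung secretes chloride and water into the airspace, and after birth sodium is taken up through the channel ENaC and the sodium pump. Of 8 chloride secretion genes 3 were lower and none higher, with a median of -0.47. Slc12a2, the cotransporter that loads chloride into the cell, had 27.4, 28.8, 27.8 and 31.6 FPKM in P4-P5, against 106 and 71.2 FPKM in E18.5 (difference -1.56, adjusted p = 0.00432). Cftr, the chloride channel, had 8.91 to 15.5 FPKM in P4-P5, against 26.7 and 33.6 FPKM in E18.5 (difference -1.25), and Clca1 1.07 to 2.36 FPKM against 17.4 and 12.8 FPKM. Without E18.5-4 the adjusted p of these 3 genes was 0.164 to 0.244. Cftr and Clca1 were lost without E18.5-3 too, and Cftr without P4a, P4e or P5b.

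Of 14 genes of sodium absorption and water transport 3 were higher and 3 lower, with a median of 0.00. Sgk1, a kinase that keeps ENaC at the membrane, had 45.0, 47.5, 39.98 and 57.1 FPKM in P4-P5, against 20.5 and 11.6 FPKM in E18.5 (difference 1.54, adjusted p = 0.00236). Nedd4l, the ligase that removes ENaC and that Sgk1 restrains, had 10.3, 8.27, 7.13 and 11.3 FPKM in P4-P5, against 25.0 and 43.9 FPKM in E18.5 (difference -1.76, adjusted p = 0.001). Atp1b1, the beta subunit of the sodium pump, had 52.3, 41.9, 40.2 and 51.4 FPKM in P4-P5, against 209 and 187 FPKM in E18.5 (difference -2.08, adjusted p = 2.9e-04). These 3 calls held, and no pup overlapped a fetus. The ENaC subunit genes Scnn1a and Scnn1g differed by 0.00 and 0.01, with intervals from -0.63 to 0.64 and from -0.62 to 0.63. Aqp5, the water channel of type 1 cells, had 32.8 to 65.6 FPKM in P4-P5, against 8.15 and 23.4 FPKM in E18.5 (difference 1.69), and Aqp4, a water channel of the basal membrane, 0.809 to 4.49 FPKM against 19.9 and 14.3 FPKM (difference -2.49). The calls of Aqp5 and Aqp4 were lost without E18.5-4 (adjusted p = 0.193 and 0.107).

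Type 2 cell genes were lower where they differed, while the surfactant proteins themselves did not pass. Of 15 genes 5 were lower and none higher, with a median of -0.60 (-0.61 without E18.5-4). Sftpc differed by -0.43 (adjusted p = 0.777) and Sftpb by 0.22 (adjusted p = 0.572). Ctsh, a protease that processes surfactant protein B, had 60.6, 26.7, 37.2 and 36.9 FPKM in P4-P5, against 245 and 180 FPKM in E18.5 (difference -2.41, adjusted p = 0.00571). Lamp3, a lamellar body membrane protein, had 128 to 231 FPKM in P4-P5, against 568 and 342 FPKM in E18.5 (difference -1.35), and Slc34a2, the phosphate transporter, 208 to 287 FPKM against 566 and 550.4 FPKM (difference -1.11). Lpcat1, which makes the main surfactant phospholipid, was lower by a difference of -1.01 and the factor Cebpa by -1.05. Among 18 genes of lipid and cholesterol synthesis 4 were lower and 1 higher, with a median of -0.45. Scd2, a fatty acid desaturase, had 77.4, 85.1, 123 and 121 FPKM in P4-P5, against 321 and 379 FPKM in E18.5 (difference -1.80, standard error 0.19, adjusted p = 7.4e-05), and its call held. Fasn, fatty acid synthase, had 18.6 to 27.9 FPKM in P4-P5, against 45.7 and 51.1 FPKM in E18.5 (difference -1.04), Gpam, which starts glycerolipid synthesis, differed by -1.58, and Scd1 by -1.29. Elovl1, an elongase of long fatty acids, was the increase (difference 0.85, adjusted p = 0.0474), and it did not pass with median ratio scaling (adjusted p = 0.0688). All calls of this paragraph but that of Scd2 were lost without E18.5-4 (adjusted p of 0.0731 to 0.507). Slc34a2, Cebpa and Elovl1 were lost without E18.5-3 as well, and without P5b. Lamp3, Scd1 and Elovl1 were lost without P4e, Cebpa without P4a, and Cebpa and Elovl1 without P5e.

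Type 1 cell genes did not move in 1 direction. Of 19 genes 4 were higher and 3 lower, with a median of 0.03. Aqp5 and Igfbp2 were among the increases, beside Spock2, a proteoglycan, with 62.9 to 74.1 FPKM in P4-P5, against 28.6 and 31.1 FPKM in E18.5, and Col4a4, a chain of the basement membrane collagen, with a difference of 0.76. Cav1, the protein of caveolae, had 146, 135, 164 and 139 FPKM in P4-P5, against 501 and 308 FPKM in E18.5 (difference -1.43, adjusted p = 0.00172). Clic5, a chloride channel homolog, had 70.3, 51.5, 72.0 and 69.0 FPKM in P4-P5, against 198 and 155 FPKM in E18.5 (difference -1.41). The guidance cue gene Sema3a was lower by a difference of -1.04. Ager, the abundant receptor of these cells, had 290 to 490.1 FPKM in P4-P5, against 238 and 283 FPKM in E18.5, and did not pass (adjusted p = 0.29). Of 15 genes of the epithelial tips and early epithelium 2 were lower, the simple keratins Krt8 and Krt18, with differences of -1.38 and -1.53. Without E18.5-4 these calls and those named here for type 1 cells were lost, with an adjusted p of 0.0780 to 0.458. Spock2, Col4a4, Sema3a and Krt18 were lost without E18.5-3 too, Col4a4 without P4a, Col4a4, Sema3a and Krt18 without P4e, Sema3a without P5b, and Col4a4 and Sema3a without P5e.

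Endothelial genes were mostly higher where they differed. Of 18 genes of endothelium in general 5 were higher and 1 lower (median 0.55, and 0.64 without E18.5-4), of 11 aerocyte genes 3 were higher (median 0.61), and of 12 genes of general capillary cells 5 were higher (median 0.57). Aerocytes are the large flat capillary cells where gas is exchanged, and general capillary cells are the stem cells of that bed. Beside Tmem100 and Plvap, Apln, the ligand made by aerocytes and endothelial tip cells, had 25.8, 37.2, 31.5 and 35.9 FPKM in P4-P5, against 7.92 and 9.67 FPKM in E18.5 (difference 1.77, adjusted p = 7.7e-04), and these 3 calls held. Eng, a coreceptor of BMP9, had 22.7 to 41.6 FPKM in P4-P5, against 5.67 and 9.84 FPKM in E18.5 (difference 1.94). Tek, the angiopoietin receptor, had 56.0 to 80.4 FPKM in P4-P5, against 34.8 and 34.1 FPKM in E18.5 (difference 1.02), and Egfl7, an endothelial matrix protein, 54.7 to 103 FPKM against 33.8 and 27.6 FPKM (difference 1.33). Bmp6, Sema3c and Ptprb of the general capillary list rose by 2.14, 1.05 and 0.85. Emcn, endomucin, was the decrease, with 31.3, 32.2, 31.3 and 15.1 FPKM in P4-P5, against 69.1 and 82.1 FPKM in E18.5 (difference -1.48, adjusted p = 0.0107). Pecam1 and Kdr, which mark endothelium as a whole, differed by -0.27 and 0.14 and did not pass. Without E18.5-4 the calls of Eng, Tek, Egfl7, Bmp6, Sema3c, Ptprb and Emcn were lost (adjusted p of 0.0752 to 0.439), and those of Egfl7, Sema3c, Ptprb and Emcn without E18.5-3 as well. Flt4, the receptor for lymphatic growth factors that capillaries also use, rose by 1.17 and was lost without E18.5-4 (0.227), E18.5-3, P4a or P5e.

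Contractile genes of smooth muscle and myofibroblasts held the largest share of increases among the lists with at least 10 tested genes. Of 17 genes 9 were higher and 1 was lower, with a median of 1.16 (1.21 without E18.5-4). Without the 3 libraries rich in zeros 12 were higher, while over all genes tested 1017 were higher in place of 771. Tagln, transgelin, had 119, 59.8, 110 and 90.5 FPKM in P4-P5, against 34.9 and 25.9 FPKM in E18.5 (difference 1.58, adjusted p = 0.00619). Acta2, smooth muscle actin, had 164 to 243 FPKM in P4-P5, against 96.8 and 80.8 FPKM in E18.5 (difference 1.16), and Myh11, smooth muscle myosin, 102 to 126 FPKM against 34.8 and 46.9 FPKM (difference 1.42). Actg2, enteric smooth muscle actin, rose by 1.83 and Tpm1, a tropomyosin, by 0.94. Hhip, which binds Hedgehog ligands and marks a myofibroblast subset, was the decrease, with 49.5 to 77.7 FPKM in P4-P5, against 127 and 108 FPKM in E18.5 (difference -0.83). In this list Des was the 1 call that held, and the calls of Tagln, Acta2, Myh11, Actg2, Tpm1 and Hhip were lost without E18.5-4 (adjusted p of 0.0608 to 0.323). Tagln, Acta2 and Hhip were lost without E18.5-3, Acta2 without P4a, P4e or P5b, and Hhip without P4e or P5e.

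The receptors for platelet-derived growth factors parted. Pdgfra, which marks myofibroblast and lipofibroblast precursors, had 46.3, 44.5, 40.8 and 45.7 FPKM in P4-P5, against 88.5 and 70.9 FPKM in E18.5 (difference -0.83, adjusted p = 0.0203). Pdgfrb, of pericytes and smooth muscle, had 53.2, 60.3, 60.4 and 50.9 FPKM in P4-P5, against 20.4 and 31.9 FPKM in E18.5 (difference 1.11, adjusted p = 0.0065). Among 13 pericyte genes 2 were higher and 1 was lower, with a median of 0.20. Mcam rose by 0.69, and Gucy1b1, a subunit of the nitric oxide receptor, was lower by a difference of -0.94. Of 15 lipofibroblast genes Angptl4, an inhibitor of lipoprotein lipase, was higher with 10.6 to 23.5 FPKM in P4-P5, against 3.84 and 3.35 FPKM in E18.5, and Fabp5, a fatty acid carrier, was lower with 72.6 to 154 FPKM in P4-P5, against 401 and 408 FPKM in E18.5. Without E18.5-4 the calls of these 6 genes were lost (adjusted p of 0.163 to 0.493). Mcam, Angptl4 and Fabp5 were lost without E18.5-3, Pdgfra, Mcam and Gucy1b1 without P4e, and Pdgfra and Mcam without P5b.

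Most genes of the elastic fiber, the collagens and the provisional matrix were not called, and those that were called were mostly higher, while the crosslinking enzyme Lox was lower. Of 20 elastic fiber genes 5 were higher and 1 was lower (median 0.62, and 0.31 without E18.5-4). Ltbp2, a microfibril protein, had 52.3, 78.7, 87.0 and 71.8 FPKM in P4-P5, against 12.4 and 16.4 FPKM in E18.5 (difference 2.24, adjusted p = 1.1e-04). Lox, the lysyl oxidase that crosslinks elastin and collagen, had 20.6, 22.7, 29.8 and 27.4 FPKM in P4-P5, against 257 and 197 FPKM in E18.5 (difference -3.13, adjusted p = 2.7e-04). Both calls held. Its relatives went the other way, Loxl2 with 75.4 to 122 FPKM in P4-P5, against 23.3 and 39.0 FPKM in E18.5 (difference 1.63), and Loxl1 with 28.2 to 46.7 FPKM against 7.38 and 9.78 FPKM (difference 1.83). Lox was also high at E16.5, with 124 and 130 FPKM, and did not exceed 64.8 FPKM in any library after birth. Mfap5, a microfibril protein, rose by 2.85 and Fbln2, a fibulin, by 2.00. Eln, elastin itself, had 198 to 634 FPKM in P4-P5, against 199 and 312 FPKM in E18.5, groups that overlap, with a difference of 0.39 and an interval from -0.18 to 0.96. Without E18.5-4 the calls of Loxl2, Loxl1, Mfap5 and Fbln2 were lost (adjusted p of 0.0611 to 0.251), and for Loxl1 also without E18.5-3 or P5b.

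Of 20 collagen genes 8 were higher and 1 was lower (median 0.46, and 0.30 without E18.5-4), and with median ratio scaling 4 were higher. Col1a1, the main fibrillar chain, had 88.5, 136, 198 and 140 FPKM in P4-P5, against 31.3 and 40.3 FPKM in E18.5 (difference 1.90, adjusted p = 0.00113). Col1a2 rose by 1.19, Col5a1 by 1.196 and Col27a1 by 1.77, while Col14a1, a collagen on the fibril surface, had 13.5 to 29.05 FPKM in P4-P5, against 52.5 and 50.5 FPKM in E18.5 (difference -1.45). No collagen call remained without E18.5-4, where the adjusted p of these 5 genes was 0.0595 to 0.232. Of 17 genes of the provisional matrix 6 were higher and 2 lower (median 0.63, and 0.17 without E18.5-4). Tnc, tenascin C, had 217, 189, 208 and 143 FPKM in P4-P5, against 24.9 and 40.6 FPKM in E18.5 (difference 2.52, adjusted p = 1.4e-04), and its call held. Sparc, Vcan and Thbs1 rose by 1.23, 1.35 and 1.13, and Ogn and Hapln1 were lower by differences of -1.998 and -1.75. The calls of these 5 genes were lost without E18.5-4 (adjusted p of 0.0615 to 0.163). Tnc stood at 85.2 to 221 FPKM at P0.5 to P2.5, at 170 to 279 FPKM at P7 to P10 and at 7.59 to 73.5 FPKM from P13.5 on.

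Signaling lists held increases for TGF-beta and BMP, Hedgehog and Notch genes and few calls elsewhere. Of 33 genes of TGF-beta and BMP signaling 10 were higher and none lower (median 0.38, and 0.46 without E18.5-4). Smad6, an inhibitor that BMP signals induce, had 13.0, 27.8, 19.6 and 39.1 FPKM in P4-P5, against 1.75 and 3.97 FPKM in E18.5 (difference 2.70, adjusted p = 2.7e-04). Its call was the only one in this list that held. Acvrl1, the endothelial receptor of BMP9 and BMP10, had 89.95, 124, 110 and 133 FPKM in P4-P5, against 40.3 and 47.9 FPKM in E18.5 (difference 1.34), and Tgfb3, a ligand, 29.8 to 55.2 FPKM against 7.16 and 14.8 FPKM (difference 1.84). Their adjusted p was 0.0584 and 0.0595 without E18.5-4. With median ratio scaling 10 genes of this list were higher and 1 was lower.

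Of 16 Hedgehog genes 4 were higher and 1, Hhip, was lower. Foxf1, the mesenchymal and endothelial factor downstream of Hedgehog, had 83.0, 85.5, 73.0 and 100.2 FPKM in P4-P5, against 26.8 and 31.7 FPKM in E18.5 (difference 1.51, adjusted p = 2.7e-04), and its call held. Ptch1 and Smo, the receptor and the transducer, rose by 1.02 and 0.86, and Foxf2 by 1.80. Of 14 Notch genes 4 were higher and none lower. Heyl, a Notch target of mural cells, had 12.3, 11.7, 27.9 and 22.7 FPKM in P4-P5, against 3.88 and 2.72 FPKM in E18.5 (difference 2.11, adjusted p = 2.9e-04), and its call held. Notch4, Nrarp and Dll1 rose by 1.65, 1.61 and 1.41. The calls of Ptch1, Smo, Foxf2, Notch4, Nrarp and Dll1 were lost without E18.5-4 (adjusted p of 0.0916 to 0.396). Ptch1, Nrarp and Dll1 were lost without E18.5-3 too, Ptch1 and Smo without P4e or P5b, and Ptch1 and Nrarp without P5e.

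Of 30 Wnt genes 2 were higher and none lower, near the 5.6% higher and 3.5% lower over all genes tested. Dkk3, a secreted relative of the Dickkopf inhibitors, had 60.1, 50.6, 70.3 and 68.0 FPKM in P4-P5, against 31.1 and 21.9 FPKM in E18.5 (difference 1.21, adjusted p = 0.00102), and its call held. Rspo2, which amplifies Wnt signals, had 6.06 to 9.79 FPKM in P4-P5 and was listed at 0 and at 1.93 FPKM in E18.5, and was lost without E18.5-4 (adjusted p = 0.460) and without any 1 of the pups. Of 16 genes of FGF signaling Spry1, a feedback inhibitor, was higher (difference 1.50) and the epithelial receptor Fgfr2 lower, with 47.9 to 61.9 FPKM in P4-P5, against 141 and 129 FPKM in E18.5 (difference -1.26). Their adjusted p without E18.5-4 was 0.312 and 0.0904. None of 16 genes of retinoic acid signaling passed, of which 12 had a positive and 4 a negative difference.

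**Figure D5:**
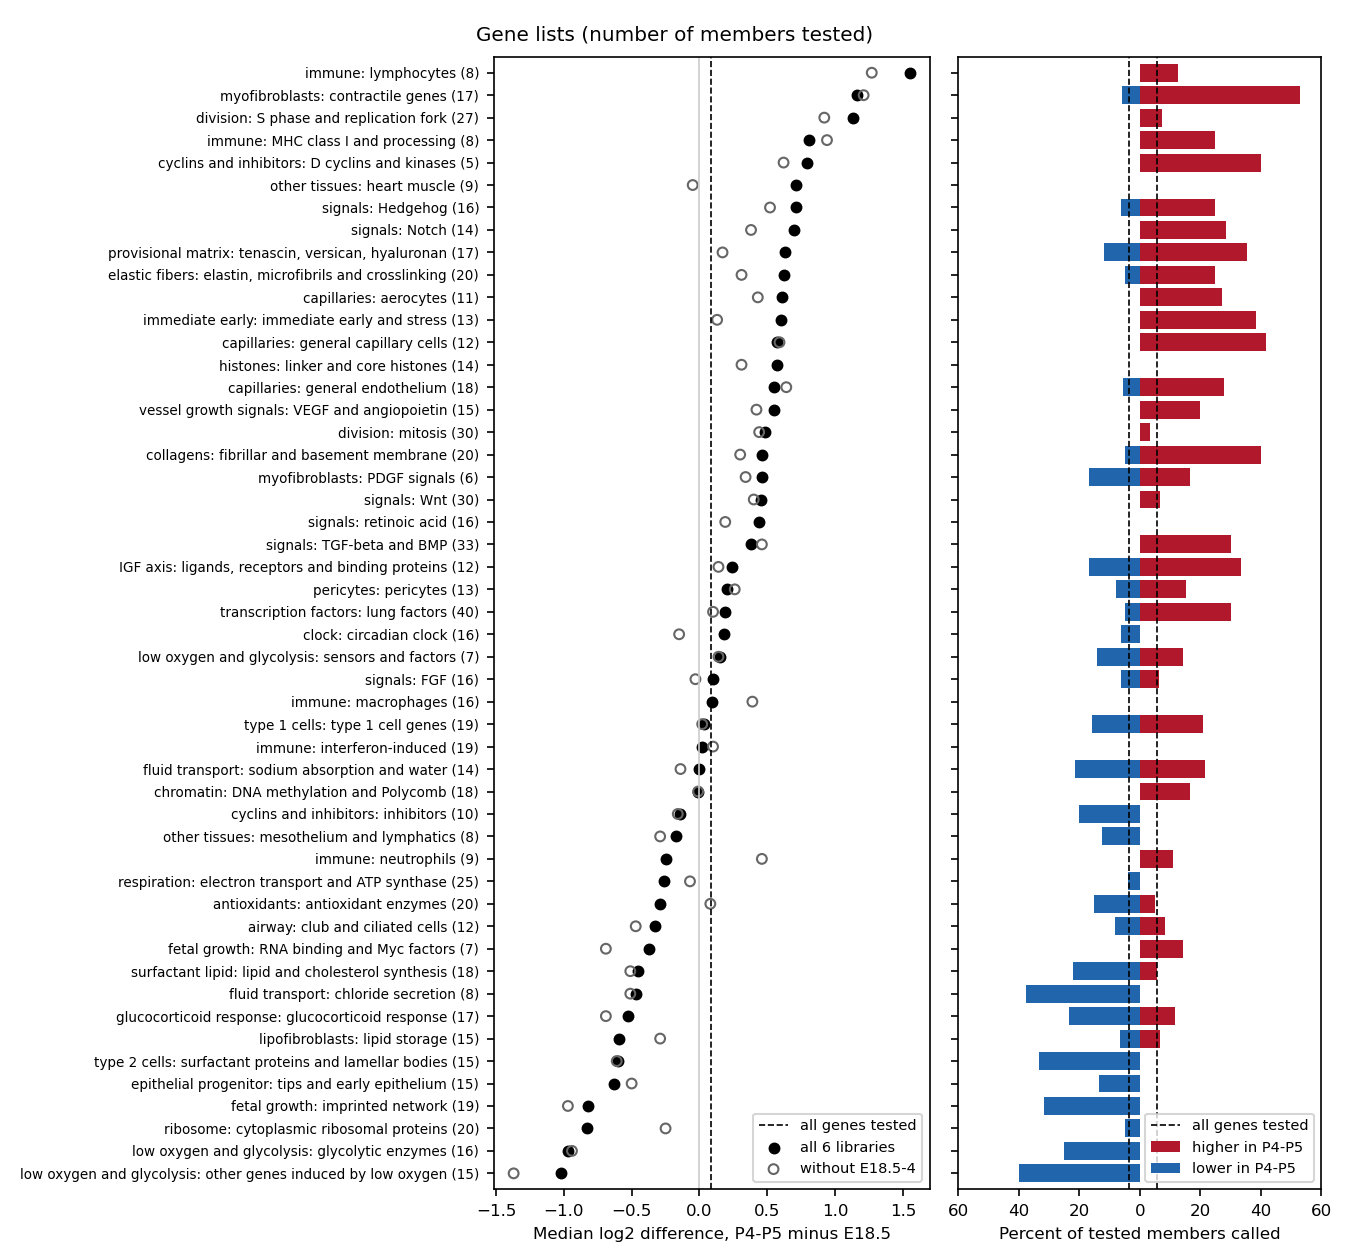
Median difference between P4-P5 and E18.5 on the log2(FPKM + 1) scale (left) with all 6 libraries (filled) and without E18.5-4 (open), and the percent of tested members called higher (red, to the right) or lower (blue, to the left) in P4-P5 (right), for gene lists with at least 5 tested members, whose number is in brackets. Dashed lines mark all 13769 genes, at a median of 0.08 and at 5.6% higher and 3.5% lower. Contractile genes have the largest share of increases and genes induced by low oxygen the largest share of decreases among the lists shown.

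Among 40 transcription factors of lung 12 were higher and 2 lower, with a median of 0.19. Foxf1 was the call that held. Klf4 rose with 43.6 to 73.0 FPKM in P4-P5, against 20.8 and 17.9 FPKM in E18.5 (difference 1.48), Sox4 with 74.4 to 136 FPKM against 20.7 and 34.3 FPKM (difference 1.89), and Tbx2 and Stat3 by 1.03. Wwtr1, the Hippo effector TAZ, was lower by a difference of -0.77. Without E18.5-4 the calls of these 5 genes were lost (adjusted p of 0.0686 to 0.554), and for Wwtr1 also without P4e, P5b or P5e, for Tbx2 without P4e. Of 18 genes of DNA methylation and Polycomb 3 were higher, Dnmt1, Uhrf1 and Hells, which keep methylation through replication. Hells had 29.5, 18.6, 13.5 and 11.1 FPKM in P4-P5, against 3.98 and 3.74 FPKM in E18.5 (difference 1.89, adjusted p = 0.0221), and the other 2 rose by 1.22 and 1.89. Their adjusted p without E18.5-4 was 0.218 to 0.550, all 3 were lost without P4a or P5b, Hells and Uhrf1 without E18.5-3, and Dnmt1 and Uhrf1 without P4e or P5e. None of 14 histone genes passed, and of 20 ribosomal protein genes 1 was lower, beside 3.5% of all genes tested. The median of the ribosomal list was -0.83 with all libraries and -0.25 without E18.5-4. Rps4x, the gene called, had 254 to 409 FPKM in P4-P5, against 1679 FPKM in E18.5-4 and 479 FPKM in E18.5-3. Its call was lost without E18.5-4 (adjusted p = 0.720), P4e, P5b or P5e.

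Genes that respond to glucocorticoids, which surge before birth and mature the lung, were divided. Of 17 genes 4 were lower and 2 higher, with a median of -0.53, and Hif3a and Sgk1 are the members whose calls held. Zbtb16, a zinc finger gene that glucocorticoids induce strongly, had 13.5, 9.30, 2.10 and 2.66 FPKM in P4-P5, against 18.6 and 32.8 FPKM in E18.5 (difference -2.005). The P5 pups were below the P4 pups. Hsd11b1, the enzyme that activates the hormone, had 28.8 to 71.8 FPKM in P4-P5, against 122 and 219 FPKM in E18.5 (difference -1.61), and Nr3c1, its receptor, 53.1 to 67.9 FPKM against 116 and 85.1 FPKM (difference -0.69). Dusp1, a phosphatase, rose by 1.92. Without E18.5-4 the adjusted p of these 4 genes was 0.0595 to 0.486, Zbtb16 and Hsd11b1 were lost without E18.5-3, Hsd11b1 and Nr3c1 without P4e or P5e, and Nr3c1 without P5b. Of 16 clock genes Clock alone was called (difference -0.78, adjusted p = 0.0474), and it was lost without E18.5-4 (0.419) and without E18.5-3, P4e, P5b or P5e.

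Immediate early genes, which handling and stress induce within minutes, were higher for 5 of 13 and lower for none, with a median of 0.60 (0.13 without E18.5-4). Nr4a1 had 10.9, 12.0, 17.4 and 39.9 FPKM in P4-P5, against 1.56 and 3.18 FPKM in E18.5 (difference 2.50, adjusted p = 1.1e-04), and its call held. Egr1 stood at 1.18 and 1.29 FPKM in the P4 pups and at 36.6 and 31.5 FPKM in the P5 pups, and was listed at 0 and at 1.09 FPKM in E18.5, so that the P4 pups lay close to the fetuses. Jun and Ier2 rose by 1.09 and 1.81. Without E18.5-4 the calls of Egr1, Jun and Ier2 were lost (adjusted p of 0.230 to 0.371), and that of Egr1 also without P4e, P5b or P5e.

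Markers of cells that a cut of septum could also hold were checked as whole lists, and the counts cover the members tested. None of 16 macrophage genes passed, and their summed level was 710 to 968 FPKM in P4-P5 and 1464 and 653 FPKM in E18.5. Of 9 neutrophil genes Ngp alone was higher, and the sum was 76.1 to 204 FPKM in P4-P5 and 204 and 101.2 FPKM in E18.5. Of 8 lymphocyte genes 1 was higher and none lower, with a median of 1.55, and the sum was 23.6 to 31.2 FPKM in P4-P5 and 10.8 and 5.2 FPKM in E18.5. Cd79a, which marks B cells, was listed at 0 in both fetuses and had 2.22 to 5.82 FPKM in P4-P5. Cd74, the invariant chain of MHC class II, had 34.0, 44.7, 52.8 and 54.8 FPKM in P4-P5, against 3.83 and 7.11 FPKM in E18.5 (difference 2.90, adjusted p = 0.00351, and 0.125 without E18.5-4). Of 19 interferon-induced genes none passed.

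Airway cells and heart muscle varied between animals. Of 12 club and ciliated cell genes 1 was higher and 1 lower, and their sum was 1500 to 6717 FPKM in P4-P5 and 1962 and 1759 FPKM in E18.5. Scgb1a1, the secretory protein of club cells, had 890, 1590, 5143 and 3092 FPKM in P4-P5, against 307 and 416 FPKM in E18.5 (difference 2.61, adjusted p = 0.0119, and 0.209 without E18.5-4), while Scgb3a2, another secretoglobin of these cells, had 45.0 to 458 FPKM against 869 and 619 FPKM and did not pass. None of 9 heart muscle genes passed, and their sum was 56.1, 167, 658 and 72.1 FPKM in P4a, P4e, P5b and P5e and 89.1 and 171 FPKM in E18.5, with P5b the highest. Myh6, the heavy chain of heart, had 3.49 to 146 FPKM in P4-P5 and 7.11 and 22.6 FPKM in E18.5. Of 15 erythroid and globin genes listed, 6 had values and 4 were tested, so blood was only partly covered. None of the 4 passed, and Alas2, of heme synthesis in red cells, had 3.64 to 42.3 FPKM in P4-P5 and 90.1 and 46.9 FPKM in E18.5. Msln, of mesothelium, was lower with 17.3 to 38.5 FPKM in P4-P5, against 84.0 and 91.4 FPKM in E18.5, and was lost without E18.5-4 (adjusted p = 0.245), E18.5-3, P4a, P4e or P5b. Msln was the only call among 8 genes of mesothelium and lymphatics, of which 3 had a positive and 5 a negative difference. Upk3b, also of mesothelium, had 3.96 to 11.8 FPKM in P4-P5, against 2.14 and 1.61 FPKM in E18.5, and did not pass. The part of these cells in the differences above was not tested.

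Few genes passed between the ages of the later group. Between P5 and P4, 2 of 13769 genes passed, in a comparison of 2 pups with 2 pups that can miss wide differences. Egr1, at 1.18 and 1.29 FPKM at P4 and at 36.6 and 31.5 FPKM at P5, did not pass. Ghrl, which encodes ghrelin, was listed at 0 in both P4 pups and had 3.39 and 6.41 FPKM in the P5 pups, and 9030204H09Rik had 4.03 and 7.13 FPKM at P4 and was listed at 0 at P5. Set against E18.5 alone, P5 gave 628 higher and 300 lower genes and P4 gave 300 higher and 212 lower, with the same 2 fetuses in both.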

How the data were processed

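The authors aligned reads with STAR 2.5.1 to mm10 and made FPKM values with Cufflinks 2.2.1, per the submitters' processing notes. The deposited FPKM matrix holds 29 libraries and gives no counts, so no counting interval was computed. Of 22779 gene IDs, 1226 stood on several lines, and the line with the highest mean was kept. Groups follow the age in the labels. limma 3.58.1 in R 4.3.3 was fitted with trend on log2(FPKM + 1) of all 29 libraries as 15 ages, with the contrast of the mean of P4 and P5 minus E18.5 and Benjamini-Hochberg adjustment. Fits were tested on simulated data. Standard errors, intervals and adjusted p come from limma, with the spread within each age pooled over all 29 libraries. Python 3.11.15 made the summaries.

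Members and gene lists were chosen with earlier results of these data known. Named genes are the 14 widest increases and 14 widest decreases among called genes without overlap and with a mean of at least 5 FPKM in the higher group, up to 4 called members per list and direction, members that go against their list, and 5 division genes. Any other gene was picked with its values in view. Alternatives changed the pseudocount, filter, scaling, repeated lines, libraries, groups and threshold, and left out each library. Each library is a separate animal. Certain genes were not analysed here.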

Additional observations from a re-analysis of the deposited data

Results flagged for a closer look

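In 9 of 164 named genes 1 of the 4 P4-P5 animals stood apart from the other 3 by Dixon's criterion, which flags about 1 in 20 groups by chance. P4a was the high animal for Tmem100 (457.2 FPKM), Pcna (112.5 FPKM) and Mcm2 (29.4 FPKM). P4e was the high animal for Hif3a (5.341 FPKM) and the low one for Clic5 (51.47 FPKM). P5b was the high animal for Gnmt (0.4604 FPKM) and Fgfbp1 (7.233 FPKM), and it stood apart for Bmp6 (15.22 FPKM). P5e was the low animal for Emcn (15.1 FPKM). The E18.5 group holds 2 animals and was not examined in this way.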

How the results depend on the processing

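The counts of 771 higher and 482 lower genes moved most with the libraries. Leaving out 1 library at a time gave 70 to 654 higher and 37 to 373 lower genes, with the lowest pair without E18.5-4. Without E18.5-3 the counts were 618 and 284, without P4a 654 and 373, without P4e 445 and 257, without P5b 526 and 306, and without P5e 458 and 257. In the fits that leave 1 animal at E18.5, that animal is assumed to vary like the other ages. P4 alone gave 300 higher and 212 lower genes, and P5 alone 628 and 300. Other alternatives kept both counts within 1.5 times: they gave 606 to 1017 higher and 341 to 678 lower genes, the upper values without P10a, P19d and P19f. The genes behind similar counts were not all the same. In the fit of only the 6 libraries, 794 of the 1253 calls were made again in the same direction. There 26 of the 164 named genes lost their call and 1 gained it. Median ratio scaling gave 653 and 598 and quantile normalization 678 and 568, with 52.2% and 54.4% of the calls higher. Of the named genes, Ccnb1 and Pcna, which were not called, changed sign. The difference of Ccnb1 was 0.19 with all libraries, -0.093 at P5 alone, -0.177 without E18.5-3 and 0.559 without E18.5-4, and -0.045 (without P5b) to 0.427 (without P5e) without 1 pup. That of Pcna was 0.34 with all libraries, and -0.040 (without P4a) to 0.713 (without P4e) without 1 pup. The other named genes kept their direction under every alternative run. Most of these were picked because they were called, so their kept direction is no independent check. No paired analysis was possible because the letters and numbers of the animals name individuals within an age and are not shared between the groups. With FPKM alone, the share of the spread that comes from read depth is unknown.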

Other observations

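Pygl, Gys1 and Ppp1r3c, genes of glycogen storage and breakdown, were lower beside Ppp1r3b. They were picked after their values were seen and belong to no list. How many other genes of this pathway did not pass was not counted. Pygl, the glycogen phosphorylase of liver, had 6.86, 8.70, 8.27 and 9.57 FPKM in P4-P5, against 63.3 and 47.8 FPKM in E18.5 (difference -2.59, limma adjusted p = 9.0e-05, and 0.00804 without E18.5-4). No pup overlapped a fetus. Gys1, glycogen synthase, was lower by a difference of -1.62 (adjusted p = 0.00919, and 0.195 without E18.5-4), and Ppp1r3c, another glycogen-targeting subunit, by -1.56 (0.0355, and 0.367 without E18.5-4). Gyg, the primer of glycogen synthesis, had a difference of -1.37 and did not pass (adjusted p = 0.222).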
